A study of Homo sapiens with 6 samples.

Results

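miR-28, miR-151a, miR-151b and miR-708 are related microRNAs (miRNAs) whose hairpins derive from LINE2 elements, an old and now immobile family of retrotransposons. Their members were taken by name from the rows of the count table: hsa-miR-28-5p, hsa-miR-28-3p, hsa-miR-151a-5p, hsa-miR-151a-3p, hsa-miR-151b and hsa-miR-708-5p, which are 6 of the 2588 mature miRNAs listed. The libraries come from Caco-2, an established human colorectal adenocarcinoma cell line, with 3 input libraries and 3 libraries of RNA immunoprecipitated with an antibody against 7-methylguanosine (m7G-RIP). The labels name no treatment of the cells, and the protocol of the study describes decapped, heat-denatured RNA, of which an aliquot was kept as input. The labels do not say whether the replicates are separate cultures, so p-values measure the spread between these libraries, which may be technical. The comparison asks which miRNAs carry internal m7G.

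A miRNA hairpin is cut from a longer transcript by DROSHA and then by DICER, which leaves a short duplex of a 5p and a 3p arm. One or both arms are loaded into the silencing complex, where bases 2 to 8, the seed, pair with target mRNAs. miR-28-5p and miR-708-5p belong to 1 seed family, while the 3p arms have other seeds and other targets. In colorectal cancer cells the arms of miR-28 are known to act on different targets. The miR-151a hairpin sits within the gene of focal adhesion kinase, PTK2, and its precursor is a known substrate of A-to-I editing. miR-151b is read from a separate hairpin and shares its sequence with miR-151a-5p, so that a read from either can match both.

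The mature sequences that RefSeq lists for miR-28-3p and for both arms of miR-708 (GRCh38.p14) are shown because they make the kinship of the 3p arms and the seeds visible. They are written from 5′ to 3′ with the seed in capitals.
miR-28-3p: cACUAGAUugugagcuccugga
miR-708-5p: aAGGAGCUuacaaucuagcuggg
miR-708-3p: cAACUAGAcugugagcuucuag
miR-28-3p lies on the plus strand of chr3:188688834-188688855, miR-708-5p on the minus strand of chr11:79402077-79402099 and miR-708-3p on the minus strand of chr11:79402032-79402053. Slid along each other without gaps, miR-28-3p and miR-708-3p matched at 17 of 21 overlapping bases, with a longest common run of 8 bases, UGUGAGCU. Their seeds are offset by 1 base and are not the same. Guanosine made up 6 of the 22 bases of miR-28-3p (27.3%), the median share of the 714 tested miRNAs with a RefSeq sequence (27.3%), and 7 of the 23 bases of miR-708-5p (30.4%). Among the RefSeq mature sequences used here, which do not include miR-28-5p, the seed of miR-708-5p was found in miR-3139, and that of miR-28-3p in no other entry.

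In GENCODE release 44, on GRCh38, the build to which the reads were mapped, all 4 hairpins lie in introns of protein-coding genes. MIR28 (ENSG00000207651.1) spans chr3:188688781-188688866 on the plus strand, in the same direction as its host LPP, which encodes a focal adhesion protein. MIR708 (ENSG00000211997.1) spans chr11:79402022-79402109 on the minus strand, in the same direction as its host TENM4, a transmembrane teneurin. MIR151A (ENSG00000254324.3) lies on the minus strand of chromosome 8, in the direction of PTK2. MIR151B (ENSG00000265154.1) spans chr14:100109419-100109514 on the minus strand, opposite in direction to EVL, an actin regulator.

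Counts on miRNAs summed to between 16466178 and 19628046 per input library and between 1654102 and 3105129 per m7G-RIP library. Unless counts are named, values below are CPM, counts divided by a library size that edgeR's TMM factors correct for composition. A miRNA with 3 counts in a library comes to 0.235 to 0.262 CPM there if it is an input library, and to 0.676 to 1.11 CPM if it is an m7G-RIP library, limits that cover counting error only. The read counts are not corrected for the unequal ligation of different small RNAs, so levels of 2 miRNAs are compared here as reads and not as molecules.

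The miR-28 and miR-151a arms were all lower in m7G-RIP than in the input with TMM scaling, with fitted levels between 0.506 of the input level for miR-151a-3p and 0.667 for miR-151a-5p. The zero of this scale depends on the scaling, and with total counts all 5 tested members lay above it. Under TMM, DESeq2's size factors, upper-quartile factors and total counts alike, all 5 lay below the median of the 800 miRNAs tested. Without a filter on low counts, where 1744 miRNAs were tested, 4 of the 5 did. A change of scaling moves all miRNAs by nearly the same amount, so the scalings give no separate support for this place. With TMM each member lay above the median, but below the upper quartile, of the other tested miRNAs within 2-fold of its input level. Within 1 library the arms of miR-28 kept nearly the same ratio to each other in m7G-RIP as in the input. miR-708 was barely detected, with at most 2 counts in any library.

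The low-count filter of edgeR kept 5 of the 6 members. Its quasi-likelihood test, read at an adjusted p-value of 0.05, called 4 of them depleted in m7G-RIP and 0 enriched. All 5 had a negative log2 enrichment with TMM, so 0 enriched was the only outcome possible there at any p-value. The DESeq2 Wald test called 0 enriched and 5 depleted, and edgeR with total counts called 2 enriched and 0 depleted. Over all miRNAs tested, 38.1% were depleted and 40.1% enriched. The 265 tested miRNAs whose log2 CPM averaged 5 or more, 4 members among them, were depleted in 57.4% and enriched in 30.6% of cases, so depletion of an abundant miRNA was common in these libraries. Enriched miRNAs made up 51.3% of all calls with TMM, 45.1% with DESeq2's size factors, 44.8% in the DESeq2 Wald test, 64.8% under upper-quartile scaling and 69.1% under total counts. The median log2 enrichment was -0.62 over the 5 tested members, 0.16 over all miRNAs tested and -0.83 over the abundant ones. The tested members thus lay within a narrow band, from -0.98 to -0.53, between the median of the abundant miRNAs and that of all, except miR-151a-3p, which lay below both. All 5, miR-151a-3p included, lay above the median of the other tested miRNAs within 2-fold of their input level. These medians were between -1.58 and -1.10, and that for miR-151a-3p was -1.44. Each member also lay between the lower and upper quartiles of these miRNAs, so none stood apart from them. For miR-151a-3p the quartiles were -3.14 and 0.35, and for miR-28-5p -2.70 and 0.31.

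**Figure D1:**
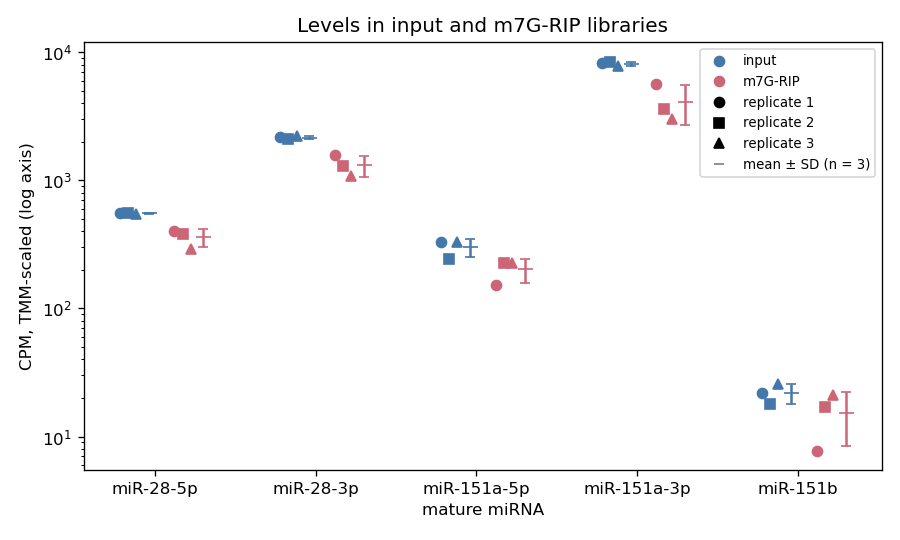
CPM (TMM-scaled, log axis) of the 5 tested members in each of the 3 input and 3 m7G-RIP libraries; marker shapes give the replicate number, and the dashes with bars the mean and SD (n = 3). The groups do not overlap for the miR-28 and miR-151a arms under this scaling, and they overlap for miR-151b.

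miR-151a-3p was the most abundant member. It was counted 96148, 106557 and 89073 times in input replicates 1, 2 and 3, and 23435, 16063 and 8113 times in m7G-RIP replicates 1, 2 and 3. Scaled, this gave 8197, 8348 and 7772 CPM for the input and 5689, 3617 and 2989 CPM in m7G-RIP. Every m7G-RIP library was below every input library, and m7G-RIP replicate 1 was nearest to the input. By mean level it ranked 20 of all listed miRNAs in the input and 27 in m7G-RIP. The means were 8106 ± 298 CPM (SD, n = 3) in the input and 4098 ± 1413 CPM (SD, n = 3) in m7G-RIP, and the log2 enrichment was -0.98 ± 0.20 (SE; edgeR, adjusted p = 0.00057). With total counts it was 0.089 ± 0.16 (SE; edgeR, adjusted p = 0.62), so its sign depended on the scaling. The DESeq2 Wald test, which the methods of the study name, gave a log2 enrichment of -1.34 (adjusted p = 6.97e-09). Of the 24 other tested miRNAs within 2-fold of its input level, 13 had a lower log2 enrichment and 14 were depleted.

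miR-28-3p, the second most abundant member, had 2167, 2083 and 2223 CPM in the input and 1568, 1288 and 1073 CPM in m7G-RIP, on 25422 to 26591 and on 2912 to 6461 counts. The groups did not overlap, and m7G-RIP replicate 3 was the lowest library. Its log2 enrichment was -0.72 ± 0.15 (SE; edgeR, adjusted p = 0.0008). With total counts it was 0.36 (edgeR, adjusted p = 0.0155), a call in the opposite direction. At a level within 2-fold of its own in the input, 20 of 29 other tested miRNAs were depleted, and their median log2 enrichment was -1.58.

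miR-28-5p, the arm that shares its seed family with miR-708-5p, had 556, 555 and 543 CPM in the input, a spread of 1.28% of the mean. In m7G-RIP it had 403, 383 and 291 CPM, again with replicate 3 the lowest. These values rest on 6225 to 7085 counts per input library and on 790 to 1702 per m7G-RIP library. The log2 enrichment was -0.62 ± 0.15 (SE; edgeR, adjusted p = 0.00253), and with total counts 0.47 (edgeR, adjusted p = 0.00498). Of 69 other tested miRNAs within 2-fold of its input level, 44 were depleted and 16 enriched, with a median log2 enrichment of -1.10.

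miR-151a-5p had 329, 245 and 331 CPM in the input and 152, 225 and 227 CPM in m7G-RIP. Input replicate 2 was low and m7G-RIP replicate 1 was lower than both others, so the groups came near each other without overlapping. The log2 enrichment was -0.59 ± 0.19 (SE; edgeR, adjusted p = 0.0126). This call rested on single libraries: without input replicate 1 the value was -0.51 (edgeR, adjusted p = 0.058) and without input replicate 3 it was -0.44 (edgeR, adjusted p = 0.114). With total counts it was 0.53 (edgeR, adjusted p = 0.0569).

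miR-151b, the shorter relative of miR-151a-5p, was scarce, with 257, 228 and 293 counts in the input and 32, 76 and 57 in m7G-RIP. This gave 21.9, 17.9 and 25.6 CPM in the input against 7.77, 17.1 and 21 CPM in m7G-RIP. The groups overlapped, since m7G-RIP replicate 3 was above input replicate 2, and m7G-RIP replicate 1 stood well below all others. The log2 enrichment was -0.53 ± 0.33 (SE; edgeR, adjusted p = 0.157) and did not pass the threshold. It did pass in the DESeq2 Wald test, with -0.85 (adjusted p = 0.0346), and without m7G-RIP replicate 3, with -0.88 (edgeR, adjusted p = 0.023). Reads that match both loci may be counted for miR-151a-5p, miR-151b or both. How they were treated is not given in the sources used here. The rows of miR-365a-3p and miR-365b-3p were nearly equal, at 302.4 and 302.3 CPM in the input and 133.7 CPM each in m7G-RIP. Rows that count the same reads would look like this, so a read may stand under more than a single name. How many miR-151b counts also stand under miR-151a-5p was not tested.

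Over all tested miRNAs, 40.8% had 3 m7G-RIP libraries below all 3 input libraries, as 4 of the members did. Same-numbered libraries put miR-151a-5p lower in m7G-RIP by a log2 ratio of between -1.11 and -0.13 and miR-28-5p by between -0.90 and -0.46.

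**Figure D2:**
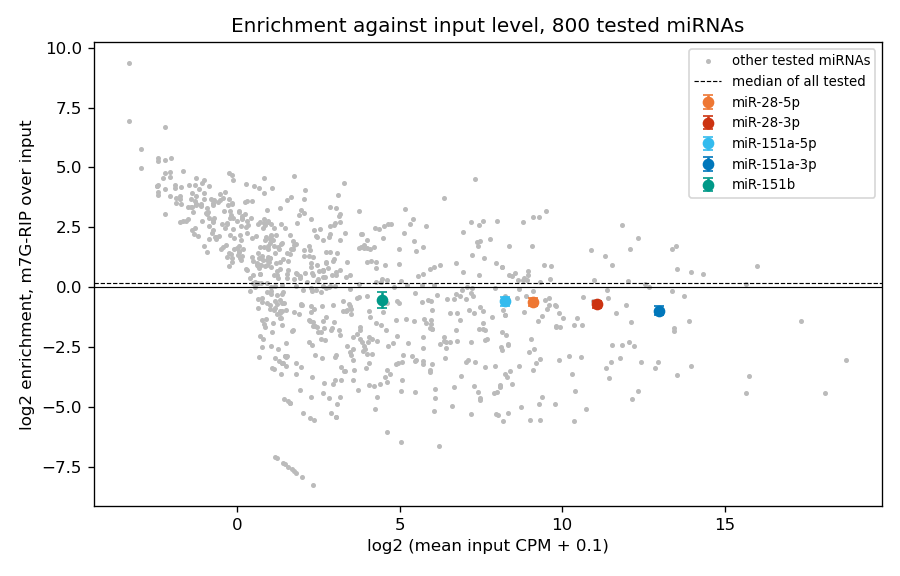
Log2 enrichment of m7G-RIP over input (TMM scaling) against log2 of the mean input CPM, with 0.1 added, for the 800 tested miRNAs; the 5 tested members are in colour with bars of 1 standard error, and the dashed line is the median of all tested miRNAs, 0.16. The members lie between -0.98 and -0.53, below the median and within the cloud of miRNAs of like input level, which spreads to both sides; with total counts all 5 lie above 0.

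miR-708-5p had 1, 0 and 2 counts in the input replicates and 0 counts in all 3 m7G-RIP libraries. Its other arm, miR-708-3p, had 2, 0 and 0 counts in the input and 0 in m7G-RIP. Neither arm was tested, and no fold is given, since both groups were at or under 3 counts. The m7G-RIP libraries would allow up to 0.676 to 1.11 CPM of miR-708-5p, so its enrichment was not measurable at this depth. Within the seed family, almost all counts in Caco-2 cells were therefore on miR-28-5p, with 19828 counts over the input libraries against 3 on miR-708-5p.

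miR-3139, which has the seed of miR-708-5p, had 35, 23 and 29 counts in the input and 0, 0 and 2 in m7G-RIP. Its pooled m7G-RIP to input ratio was 0.0733, with an exact 95% interval of 0.00874 to 0.273 for counting error. Of 3 further rows on a short list of LINE2-derived miRNAs, miR-95-5p and miR-325 were at 0 counts in every library, and miR-95-3p had 41, 59 and 35 counts in the input against 2, 0 and 0 in m7G-RIP. The pooled ratio of miR-95-3p was 0.0472 (exact 95% interval 0.00566 to 0.174). Both rows passed the low-count filter through their input counts, so a lower value in m7G-RIP was the only difference that could be called for them, and no test is given. The intervals leave out the spread between libraries. Both ratios are below the 0.506 to 0.694 of the tested members, but on far fewer counts and in rows kept through their input counts, so no ranking is drawn. The difference itself was not tested.

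The ratio of 2 rows within 1 library does not depend on the scaling between libraries, so it allows arms and relatives to be compared directly. The 3p arm of miR-28 had 3.90, 3.75 and 4.09 counts for each count of the 5p arm in the input, and 3.89, 3.36 and 3.69 in m7G-RIP. The groups overlapped and lay within a narrow range. On the log2 scale, with 0.5 added to each count, the 5p to 3p ratio was -1.97 ± 0.06 (SD, n = 3) in the input and -1.86 ± 0.11 (SD, n = 3) in m7G-RIP. The difference was 0.11 with a 95% interval from -0.20 to 0.41 (limma across 194 hairpins, adjusted p = 0.478), which did not pass the threshold. Of the 194 hairpins with both arms tested, 133 (68.6%) changed their arm ratio, 91 toward the 5p arm and 42 toward the 3p arm, and the median size of the change was 2.14. The difference was smaller in size than that of miR-28 in 5 hairpins and smaller than that of miR-151a in 20.

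The arms of miR-151a were more unequal and more variable. The 3p arm had 24.9, 34 and 23.5 counts for each count of the 5p arm in the input and 37.4, 16.1 and 13.1 in m7G-RIP. m7G-RIP replicate 1 was thus above every input library and the other 2 were below. The log2 5p to 3p ratio was -4.76 ± 0.29 (SD, n = 3) in the input and -4.32 ± 0.80 (SD, n = 3) in m7G-RIP, and the difference of 0.44 had a 95% interval from -0.58 to 1.47 (limma, adjusted p = 0.376). Without m7G-RIP replicate 1 the difference was 0.90 toward the 5p arm (limma, adjusted p = 0.0172), so whether a change was called rested on this library.

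The share of miR-151b relative to miR-151a-5p was 6.66%, 7.28% and 7.71% in the input and 5.10%, 7.62% and 9.24% in m7G-RIP. The mean log2 ratio was -3.79 in the input and -3.80 in m7G-RIP, with a wider spread in m7G-RIP (SD 0.43 against 0.11, n = 3 each). The difference of -0.0083 was far within this spread (exact permutation test, two-sided, p = 0.9). Because the sequences are shared, these rows are not independent measurements.

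Of 3 such ratios between relatives, miR-28-5p to miR-151a-5p differed by -0.038 on the log2 scale between m7G-RIP and input (exact permutation test, two-sided, p = 1), with differences of 0.65, -0.41 and -0.36 in same-numbered libraries. The ratio of the 3p arms, miR-28-3p to miR-151a-3p, was -1.91 ± 0.10 (SD, n = 3) in the input and -1.61 ± 0.22 (SD, n = 3) in m7G-RIP. The difference of 0.30 was in the direction of miR-28-3p in 3 of 3 same-numbered libraries (exact permutation test, two-sided, p = 0.2, adjusted p = 0.6 over the 3 ratios). With 3 libraries against 3 the smallest p this test can give is 0.1, so none of these ratios could pass 0.05.

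**Figure D3:**
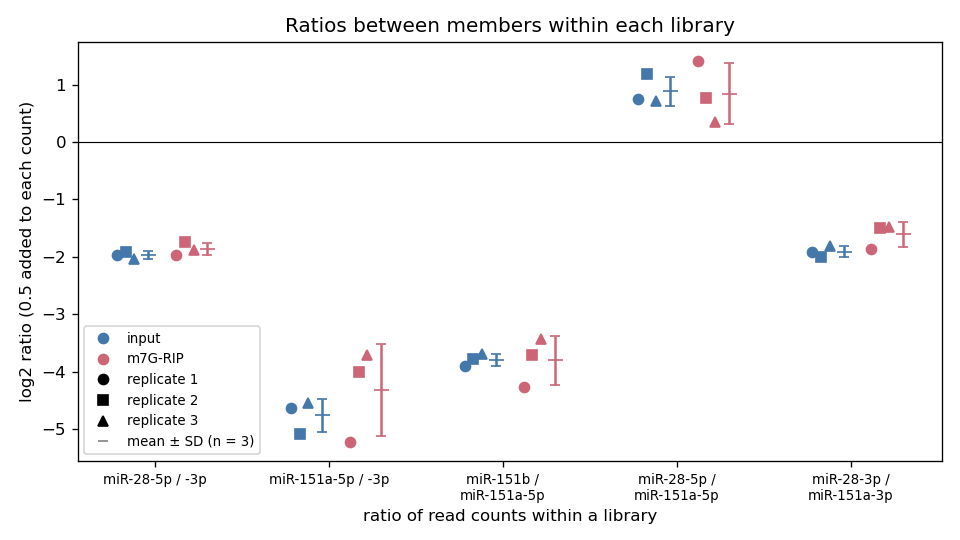
Log2 ratio of the counts of 2 members within each library, with 0.5 added to each count; input libraries are blue, m7G-RIP libraries red, marker shapes give the replicate number, and the dashes with bars the mean and SD (n = 3). The miR-28 arms keep their ratio near -1.97 to -1.86, while the 3 ratios that involve miR-151a-5p spread more widely in m7G-RIP, where replicate 1 is the lowest library for its ratio to miR-151a-3p and for miR-151b, and the highest for miR-28-5p.

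As a group the 6 members took 0.794%, 0.732% and 0.758% of all miRNA counts in the input and 1.04%, 0.791% and 0.755% in m7G-RIP. The groups overlapped on this scale of raw shares. Within the group, miR-151a-3p held between 71.3% and 74.2% of the input counts and between 65.0% and 72.7% of the m7G-RIP counts, and miR-28-3p between 18.5% and 20.4% and between 20.1% and 23.3%. The 2 arms labelled 3p thus made up most reads of the family before and after immunoprecipitation.

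**Figure D4:**
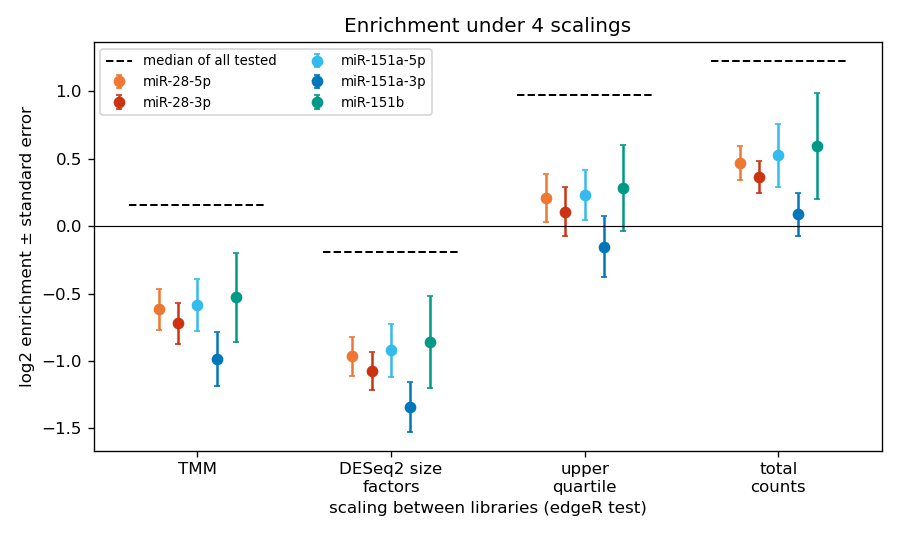
Log2 enrichment of the 5 tested members in edgeR's quasi-likelihood test under 4 scalings between libraries, with bars of 1 standard error; dashed lines give the median of the 800 tested miRNAs under each. All 5 members are below 0 with TMM and DESeq2's size factors, 4 are above 0 with upper-quartile factors and 5 with total counts. All lie below the dashed line in every case, but each scaling moves the members and the line by nearly the same amount.

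Across the 6 libraries the log2 CPM of miR-28-5p was most like that of miR-9-3p (Pearson's r = 0.995) and miR-32-3p (0.993), and that of miR-28-3p most like miR-361-3p (0.992) and miR-548o-3p (0.992), among the 261 other abundant miRNAs tested. miR-151a-3p was most like miR-132-5p (0.999) and miR-361-3p (0.989), and miR-151a-5p most like miR-501-5p (0.983) and miR-342-3p (0.977). For miR-151b the closest were miR-362-5p (0.916) and miR-342-3p (0.878). These correlations are over 6 libraries in 2 groups, so any pair of miRNAs that differ between the groups in 1 direction is correlated, and they are given as a description. They do not compare the size of a difference. The log2 enrichment was -2.38 for miR-9-3p against -0.62 for miR-28-5p, and -2.09 for miR-132-5p against -0.98 for miR-151a-3p. Those of miR-361-3p (-0.93) and miR-501-5p (-0.44) were nearer to their members.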

How the data were processed

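Small RNA libraries of 3 input and 3 m7G-RIP samples of Caco-2 cells were analysed, grouped by their titles. Per the methods of the study, the authors trimmed adaptors with Trimmomatic, mapped reads to GRCh38 with STAR, allowing 1 mismatch and multiple loci, and counted them with featureCounts on the mature miRNAs of miRBase 22; the labels name Bowtie2 in place of STAR. The file deposited by the authors holds these raw counts for each library, not normalized or pooled. The treatment of multi-mapping reads by the counter is not given in the sources used here. Nearly equal rows, such as those of miR-365a-3p and miR-365b-3p, are what counting a read at every matching locus would give.

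The members and lists were chosen with earlier results of these data known. All miRNAs were fitted together in edgeR 4.0.16 (R 4.3.3): filterByExpr (minimum count 10, minimum total 15), TMM factors, and the quasi-likelihood test with Benjamini-Hochberg adjustment over the 800 miRNAs tested, called under 0.05. The standard error is the absolute log2 enrichment divided by the square root of F. Arm ratios, log2 of counts plus 0.5, were tested with limma 3.58.1 over the 194 hairpins with both arms tested, and ratios between relatives with exact permutation tests. On data simulated for m7G-RIP against input (783 miRNAs tested) edgeR recovered 95% of changes of 2 and 63% of changes of 1 on the log2 scale, with 4.24% of calls false. The limma step, on 188 simulated hairpins, recovered 90% of changes of 2 and 48.6% of changes of 1. The simulation gave every miRNA the same dispersion, with as many changes up as down and fewer changes than were called in the data. Its rates check the code and may not hold for these libraries.

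Named miRNAs are the members, miR-708-3p, a short list of LINE2-derived miRNAs (miR-95-5p, miR-95-3p and miR-325), rows that share a member's seed in RefSeq, and for each tested member the 2 miRNAs with the highest correlation of log2 CPM. RefSeq sequences were matched by name for 2 of the 6 members. The comparison with miRNAs within 2-fold of a member's input level was chosen after the data were seen. No 2 libraries of a group were copies: their chi-square, divided by its degrees of freedom, ranged from 11.3 to 66.1. Alternatives were other scalings, DESeq2 1.42.0, other filters, another pseudocount, edgeR's diffSpliceDGE for arms, the replicate block and leaving out each library. Figures were drawn with matplotlib 3.10.9 in Python 3.11.15.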

Additional observations from a re-analysis of the deposited data

How the results depend on the processing

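The direction of the members depends on the scaling. With total counts the log2 enrichment was 0.47 for miR-28-5p, 0.36 for miR-28-3p, 0.53 for miR-151a-5p, 0.089 for miR-151a-3p and 0.60 for miR-151b, with 2 members enriched and 0 depleted. With upper-quartile factors these values were 0.21, 0.11, 0.23, -0.15 and 0.28, with 0 members depleted. In the DESeq2 Wald test, which the methods of the study name, they were -0.96, -1.07, -0.92, -1.34 and -0.85, with 5 members depleted. Over the 800 miRNAs tested with TMM, the median change of a miRNA's log2 enrichment was 1.09 (total counts), 0.82 (upper quartile), -0.34 (DESeq2's size factors) and -0.31 (no filter). miR-151b passed the threshold with DESeq2's size factors (-0.86), in the DESeq2 Wald test (-0.85) and without a filter (-0.84). Of all tested miRNAs, 321 enriched and 305 depleted as reported, 198 were depleted with total counts, and 182 were enriched and 175 depleted with at least 10 counts in every library, where fewer miRNAs were tested (426). With a library left out in turn, 268 to 341 were enriched and 235 to 377 depleted, and 3 to 5 members were depleted. Over these libraries left out the log2 enrichment lay between -0.82 and -0.55 for miR-28-5p, -0.90 and -0.63 for miR-28-3p, -0.83 and -0.44 for miR-151a-5p, -1.33 and -0.89 for miR-151a-3p and -0.88 and -0.23 for miR-151b. The arm ratio differed by 0.05 to 0.15 for miR-28 and by 0.14 to 0.90 for miR-151a, and in diffSpliceDGE by 0.10 and 0.40 (adjusted p = 0.687 and 0.156). The difference of the miR-151b to miR-151a-5p ratio was 0.0027 with 1 added to each count and lay between -0.20 and 0.23 with a library left out. That of miR-28-5p to miR-151a-5p lay between -0.32 and 0.21, and that of miR-28-3p to miR-151a-3p between 0.23 and 0.43. With the replicate number as a block 4 members were depleted and 0 enriched, and the median of the members was -0.63. Same-numbered libraries did not deviate together (correlations of -0.014, -0.028 and 0.06, with 2 of 6 libraries correlated best with their own number). With 3 libraries per group this check cannot exclude that they are pairs. The arm ratio of miR-708 and the ratio of miR-708-5p to miR-28-5p were not run, because miR-708 had at most 2 counts per library.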
